A study of Mus musculus with 6 samples.

Results

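The interferon regulatory factors (IRFs) and interferon beta were examined in mouse peritoneal macrophages as 9 genes, namely Irf1, Irf2, Irf3, Irf4, Irf5, Irf7, Irf8, Irf9 and Ifnb1. The members were found by gene name in a table of 54532 genes, and each name matched 1 gene. The study asked how muscone acts on macrophages in which the NLRP3 inflammasome has been primed and activated. Cells came from male C57BL/6J mice of wild-type (WT) genotype, aged between 6 and 8 weeks, and had been drawn into the peritoneum with thioglycolate. Control cells were untreated. For Model, LPS, a bacterial cell wall component, was given at 500 ng/mL for 5.5 h, and 2 mM ATP was then added for 0.5 h. For MUS, LPS and ATP were given in the same way, and muscone, a macrocyclic ketone, was added at 50 μM when 0.5 h remained before ATP. Each of the 3 groups had 2 libraries of poly-A RNA, and the labels give replicate 1 and replicate 2 as batch 1 and batch 2. The sources used here do not tie the libraries to separate mice or cultures, so p-values measure the spread between these libraries, which may be technical. No group received muscone without LPS and ATP, or LPS without ATP.

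IRFs are transcription factors that bind DNA repeats of the letters GAAA through a conserved N-terminal domain. In macrophages, IRF3 and IRF7 become active when they are phosphorylated downstream of Toll-like receptors and nucleic acid sensors, and together with NF-κB and AP-1 they switch on Ifnb1. Secreted interferon beta then acts on its receptor, and the complex ISGF3, which contains IRF9, turns on interferon-stimulated genes, of which Irf7 is itself one. IRF1 acts in inflammatory and interferon gamma responses, IRF2 often opposes it at the same sites, IRF5 serves inflammatory cytokine genes, and IRF4 and IRF8 act with partner factors in myeloid and lymphoid cells. Since IRF3, IRF5 and IRF7 are switched on at the protein level, their transcript levels do not measure their activity.

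The promoters of 5 members are shown, Ifnb1 because its promoter is a well known target of IRFs, Irf7 and Irf9 because both were called in the comparisons with Control, and Irf1 and Irf2 because their windows held matches to more than 1 of the motifs searched. The letters come from RefSeq promoter windows on GRCm38.p6, which held windows of all 9 members, and give the 250 bases before the annotated start, 5′ to 3′ on the strand of the gene. Capitals mark matches to any of 4 motifs searched on both strands, which were the IRF core AANNGAAA, the interferon-stimulated response element (GAAA, any 2 bases, GAAA), the gamma-activated site (GAS) TTCNNNGAA, and the NF-κB site. The IRF core lies within some response elements, so their matches can overlap. The windows lie at chr4:88522795-88523044 on the minus strand for Ifnb1, chr7:141266425-141266674 on the minus strand for Irf7, chr14:55603735-55603984 on the plus strand for Irf9, chr11:53769764-53770013 on the plus strand for Irf1 and chr8:46739495-46739744 on the plus strand for Irf2.
Ifnb1: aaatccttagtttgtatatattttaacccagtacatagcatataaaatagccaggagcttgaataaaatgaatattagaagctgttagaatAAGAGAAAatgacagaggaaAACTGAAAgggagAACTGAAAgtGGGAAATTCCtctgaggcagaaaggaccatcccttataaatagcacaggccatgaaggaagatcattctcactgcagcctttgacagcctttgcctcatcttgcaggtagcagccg
Irf7: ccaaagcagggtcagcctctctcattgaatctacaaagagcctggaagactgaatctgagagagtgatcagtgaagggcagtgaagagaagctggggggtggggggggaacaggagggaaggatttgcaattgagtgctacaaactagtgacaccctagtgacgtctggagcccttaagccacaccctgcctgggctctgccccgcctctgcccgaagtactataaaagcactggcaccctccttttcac
Irf9: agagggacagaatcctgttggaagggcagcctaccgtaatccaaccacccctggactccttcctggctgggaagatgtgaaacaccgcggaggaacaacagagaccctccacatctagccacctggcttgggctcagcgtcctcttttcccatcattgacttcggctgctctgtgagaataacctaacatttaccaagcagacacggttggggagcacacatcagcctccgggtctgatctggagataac
Irf1: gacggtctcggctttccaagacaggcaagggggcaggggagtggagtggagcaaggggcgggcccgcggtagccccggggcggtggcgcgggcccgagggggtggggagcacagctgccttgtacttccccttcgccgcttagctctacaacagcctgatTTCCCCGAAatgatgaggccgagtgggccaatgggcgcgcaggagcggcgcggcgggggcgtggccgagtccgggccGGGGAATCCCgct
Irf2: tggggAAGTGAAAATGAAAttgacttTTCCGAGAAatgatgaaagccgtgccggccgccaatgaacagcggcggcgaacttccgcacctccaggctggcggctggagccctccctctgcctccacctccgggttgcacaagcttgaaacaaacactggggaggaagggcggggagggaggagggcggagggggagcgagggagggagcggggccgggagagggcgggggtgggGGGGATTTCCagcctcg
In the Ifnb1 window, 3 IRF cores began 159, 139 and 126 bases before the start, and an NF-κB site began 116 bases before it. The Irf1 window held a GAS motif 90 bases and an NF-κB site 13 bases before the start. In the Irf2 window there were 2 IRF cores, a response element at 241 bases, a GAS motif at 224 bases and an NF-κB site at 17 bases before the start. Irf8, not printed here, had GAS motifs 171 and 153 bases before its start. None of these letters occurred in the windows of Irf3, Irf4, Irf5, Irf7 and Irf9, which says only that these motifs are not in these windows. Among 32851 promoter windows of 300 bases, 23.9% held the IRF core, 3.44% the response element, 8.30% the GAS motif and 4.51% the NF-κB site, so a single IRF core is a common match.

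The fragments on genes, which could be recovered from the deposited values, numbered between 15526321 and 17135442 per library. Values are FPKM, fragments scaled to gene length and to the depth of the library. The length was that of all annotated exons of a gene together, which exceeds its longest transcript unevenly. It was 3976 against 2137 bases for Irf1 and 4903 against 4764 bases for Irf4. Levels, ranks and shares compared between genes therefore depend on this choice of length. Of 9 macrophage markers, 9 were expressed at a mean of at least 1 FPKM, with a sum between 9588 and 14300 FPKM per library. For other cells, the summed level was at most 0.377 FPKM for T cells, 1.93 FPKM for B and plasma cells, 0.240 FPKM for NK cells, 2.66 FPKM for dendritic cells, and 0.689 FPKM for mast cells. Among 6 neutrophil markers, Ly6g, Retnlg and S100a9 were at 0 in every library, and the sum of the list was 52.6 to 53.3 FPKM in Control, 132 to 159 in Model and 119 to 121 in MUS. Within it S100a8 was at 13.5 and 30.6 FPKM in Control, 110 and 56.5 FPKM in Model, and 64.0 and 50.3 FPKM in MUS. It was upregulated in Model vs. Control (log2 fold change 1.90, adjusted p = 0.0365, limma). The other 2 markers tested were not called. Csf3r was higher in Model (33.1 and 18.5 FPKM in Control, 46.3 and 72.0 FPKM in Model), and Mmp8 was lower (6.62 and 3.48 FPKM against 2.63 and 3.65 FPKM). Whether the 0 of S100a9, beside S100a8 at up to 110 FPKM, means absence was not tested. The eosinophil markers Epx, Prg2 and Ear6 were at 0 in every library, with a list sum of 1.23 to 4.06 FPKM, and the mesothelial and fibroblast list summed to between 11.8 and 22.7 FPKM. In that list Dcn was upregulated in Model vs. Control (1.18, adjusted p = 0.0161, limma). S100a8, Csf3r, Mmp8 and Dcn were singled out after their values were seen, and the part of such cells in the results was not tested. Across genes, and as a description only, r between the libraries of a group was 0.924 (Control), 0.944 (Model) and 0.981 (MUS).

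Control and Model each held a library that stood apart. Of 30 interferon-stimulated genes, 30 were higher in Control replicate 2 than in Control replicate 1, with a median log2 difference of 2.40, against 0.04 over all 9794 genes tested. Their summed level was nevertheless 127 to 722 FPKM in Control against 12062 to 14999 FPKM in Model and 14010 to 16232 FPKM in MUS. Model replicate 1 had fragments on 24906 genes, against 17406 to 19200 in the other libraries. The deposited per-million scale also differed between groups. It was 1.34 to 1.45 times the fragments on genes in Control, 0.909 to 0.998 times in Model and 0.932 to 0.986 times in MUS, so that scaling by the fragments on genes moved the median of all genes in Model vs. Control from 0.04 to -0.40 on the log2 scale.

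Irf7 and Irf9, 2 of the 9 genes, were upregulated in Model vs. Control, and none was downregulated (limma on log2(FPKM + 1), two-sided, adjusted p of at most 0.05 over the 9794 genes tested and absolute log2 fold change over 1, the thresholds for differentially expressed genes, DEGs). Among all genes tested, 15.1% were DEGs, 9.5% upregulated and 5.56% downregulated. For 8 of the 9 genes, all but Irf3, both Model libraries were above both Control libraries, which was the case for 32.6% of all genes, while 28.5% lay below without overlap. An unadjusted p under 0.05 was found for 5 of the 9 genes and for 33.6% of all genes. The median log2 fold change of the 9 genes was 0.93, against 0.04 over all genes. These counts and the median include Ifnb1, which passed the filter on low values only through the treated libraries and so had to differ. The adjusted p was at most 0.05 for Irf2 as well, whose fold change was just under the threshold. With the replicate number as a block, 4 of the 9 genes were called, since Irf1 (adjusted p = 0.0496, limma) and Ifnb1 joined them. In bulk RNA, a change in the RNA per cell and a change in the cells that carry it cannot be told apart.

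**Figure D1:**
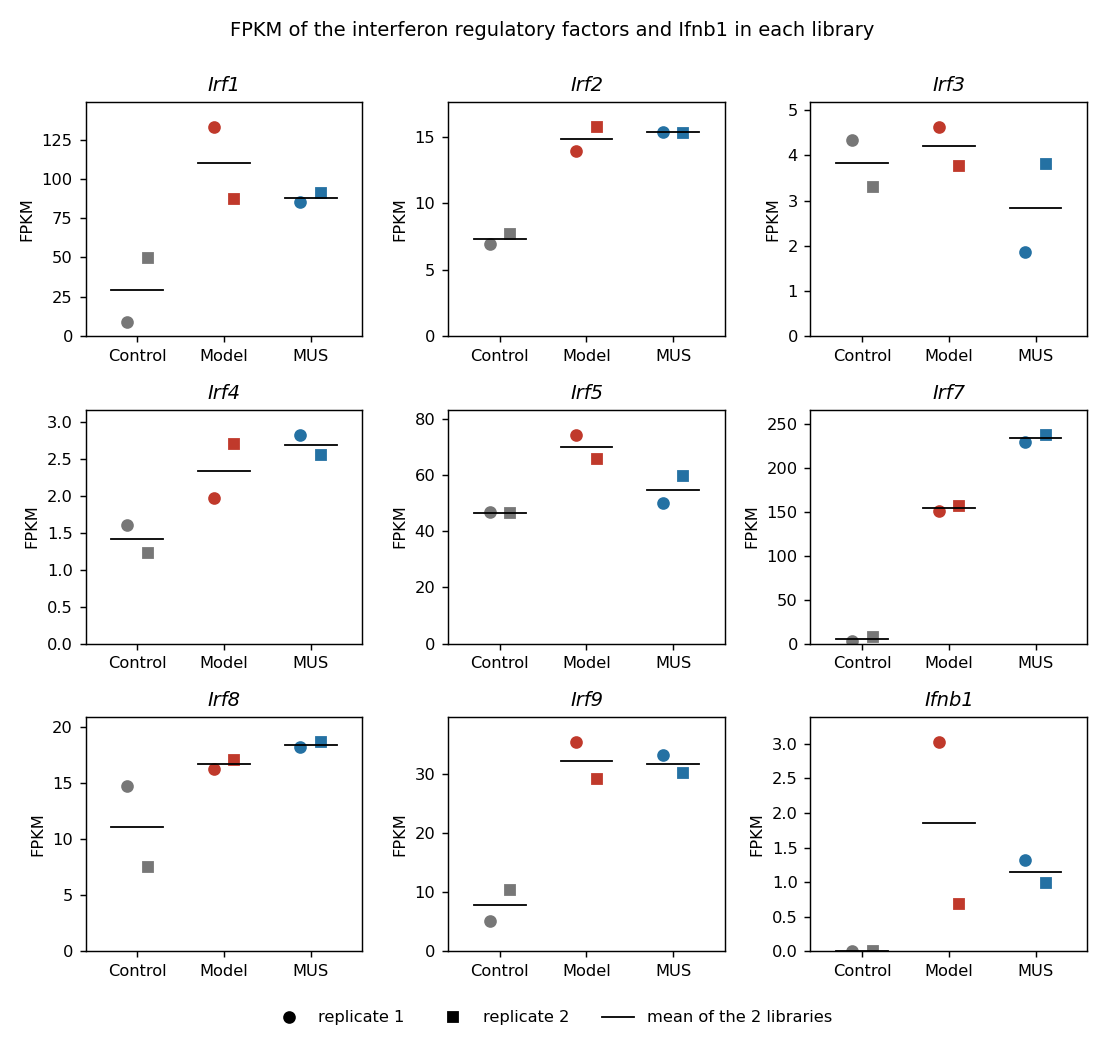
FPKM of each of the 9 genes (vertical axis of each panel, starting at 0) in the 2 libraries of Control, Model and MUS (horizontal axis). Circles are replicate 1, squares replicate 2, and lines the mean of the 2 libraries. Irf7 lay between 3.08 and 8.07 FPKM in Control, between 152 and 157 in Model and between 230 and 238 in MUS, whereas the libraries of Control differed widely for Irf1.

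Irf7, the interferon-inducible amplifier of type I interferon production, had the largest log2 fold change of FPKM + 1 among the 9 genes. It was at 3.08 and 8.07 FPKM in Control, 152 and 157 FPKM in Model, and 230 and 238 FPKM in MUS. The 3 groups did not overlap, and the lowest Model library was far above the highest Control library. Mean levels were 5.57 ± 3.53 (SD, n = 2), 154 ± 3.78 (SD, n = 2) and 234 ± 5.84 FPKM (SD, n = 2). On the deposited scale this is a 27.7-fold higher mean in Model than in Control. Relative to Control, the log2 fold change in Model was 4.68 ± 0.41 (SE, adjusted p = 0.00157, limma) and ranked 56 of 9794 genes by size. It was 5.23 within batch 1 and 4.12 within batch 2, and 4.21 over all libraries with fragment-total scaling. These values rested on 266 and 697 fragments in Control and on 8091 and 9195 in Model. Leaving out Control replicate 2 gave 5.25, leaving out Model replicate 1 gave 4.70, and Irf7 was a DEG under each of the 17 alternatives tried. The gene lies on chr7:141262706-141266481 (GRCm38, minus strand). There, the annotated exons of its transcripts together cover the whole locus, introns of some transcripts included. Of its exonic bases, 45 overlap Phrf1 on the other strand.

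Irf9, the DNA-binding subunit of ISGF3, was at 5.21 and 10.4 FPKM in Control, 35.4 and 29.2 FPKM in Model, and 33.3 and 30.3 FPKM in MUS. Both treated groups were above Control, and they overlapped each other. In Model vs. Control its mean was 4.13-fold higher on the deposited scale, with a log2 fold change of 1.98 ± 0.34 (SE, adjusted p = 0.0112, limma). With fragment-total scaling the log2 fold change was 1.49, or 1.89 relative to the median of all genes. On the deposited scale it was 2.55 within batch 1 and 1.40 within batch 2. The call was lost without Model replicate 1 (1.84, adjusted p = 0.0630, limma) and with no filter on low values (1.98, adjusted p = 0.0785, limma), where the log2 fold change stayed close to that of the whole set. Without Control replicate 2 it was 2.42 (adjusted p = 0.00308, limma). Irf9 (chr14:55603571-55610030, GRCm38, plus strand) shares 123 exonic bases with its neighbor Rnf31 on the same strand.

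Irf1, an activator of inflammatory and antiviral genes, had the widest gap of the 9 genes between the Control libraries, on the log scale. It was at 8.66 and 49.7 FPKM in Control, 133 and 87.3 FPKM in Model, and 85.3 and 90.7 FPKM in MUS. Control replicate 2, the library with higher interferon-stimulated genes, was also the Control library with more Irf1. Both Control libraries were nevertheless below every Model and MUS library, while Model and MUS overlapped each other. For Model against Control the log2 fold change was 2.30 with a 95% interval from 0.62 to 3.97 (adjusted p = 0.0681, limma), so Irf1 was not a DEG. With fragment-total scaling the log2 fold change was 1.78, or 2.18 relative to the median of all genes. On the deposited scale it was 3.79 within batch 1 against 0.80 within batch 2. Without Control replicate 2 it was 3.49 (adjusted p = 0.00186, limma), and without Control replicate 1 it was 1.10 (adjusted p = 0.135, limma). Irf1 was called in 4 of 17 alternatives. Part of Irf1 (chr11:53770014-53778374, GRCm38, plus strand), 135 exonic bases, overlaps Gm17334 on the other strand, and since the sources used here do not state whether counting used strand, reads of the overlap cannot be assigned.

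Irf2, which binds the same sites as Irf1 and often represses them, had closely matching libraries within each group. Its levels were 6.94 and 7.71 FPKM in Control, 14.0 and 15.7 FPKM in Model, and 15.4 and 15.3 FPKM in MUS. Treated libraries were all above the Control libraries, and the mean in Model was 2.03-fold that in Control. The log2 fold change of 0.93 ± 0.22 (SE, adjusted p = 0.0311, limma) was close to 1, below which no gene is called, and was 0.91 within batch 1 and 0.94 within batch 2. With fragment-total scaling it was 0.44, which is 0.84 above the median of all genes on that scale. Irf2 lies on chr8:46739732-46847458 (GRCm38, plus strand).

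Irf3, the constitutively made factor of the first wave of Ifnb1 transcription, showed no separation between groups. It was at 4.35 and 3.30 FPKM in Control, 4.63 and 3.77 FPKM in Model, and 1.86 and 3.81 FPKM in MUS. The low value in MUS replicate 1 rested on 97 fragments, against 201 to 342 in the other libraries. From Control to Model the log2 fold change was 0.11, with a 95% interval from -0.58 to 0.81, and it became negative, at -0.34, with fragment-total scaling. Of the exonic bases of Irf3 (chr7:44997648-45002848, GRCm38, plus strand), 88 overlap Bcl2l12 on the other strand.

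Irf5, which acts on inflammatory cytokine genes downstream of MyD88, was the most abundant IRF transcript in Control on average. It was at 46.8 and 46.3 FPKM in Control, 74.4 and 65.7 FPKM in Model, and 49.99 and 59.6 FPKM in MUS. Model was above both other groups without overlap, but the recovered fragments were nearly equal in Control (3111 and 3078) and Model (3049 and 2955). The log2 fold change from Control to Model was 0.58 (95% interval from -0.07 to 1.22, adjusted p = 0.190, limma) on the deposited scale and 0.04 with fragment-total scaling, and it was negative with quantile normalization (-0.15) and after rescaling to the total that left out mitochondrial genes and the 20 highest (-0.05). Relative to the median of all genes it was 0.53 on the deposited scale and 0.44 with fragment-total scaling. Irf5 (chr6:29526625-29541871, GRCm38, plus strand) overlaps Tnpo3 on the other strand by 411 bases, 14.1% of its exonic length, so some of its fragments may belong to Tnpo3.

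Irf8 and Irf4, the hematopoietic IRFs that bind DNA with partners such as PU.1 and BATF, differed less from Control than Irf7 and Irf9 did. Irf8 was at 14.8 and 7.51 FPKM in Control, 16.3 and 17.1 FPKM in Model, and 18.3 and 18.7 FPKM in MUS. Irf4 was at 1.61 and 1.23 FPKM in Control, 1.98 and 2.71 FPKM in Model, and 2.83 and 2.56 FPKM in MUS, on 137 to 210 fragments per library. Treated libraries were above Control for both genes, and neither passed the test in Model vs. Control. The log2 fold change was 0.61 for Irf8 (adjusted p = 0.230, limma), 0.13 within batch 1 and 1.09 within batch 2. For Irf4 it was 0.46 (adjusted p = 0.194, limma), 0.19 within batch 1 and 0.73 within batch 2. With fragment-total scaling these became 0.10 and 0.12, or 0.51 and 0.52 relative to the median of all genes. Irf8 lies on chr8:120736358-120756694 and Irf4 on chr13:30749226-30766976 (GRCm38, both on the plus strand).

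Ifnb1, the type I interferon that macrophages secrete first, was not detected in Control and was low in the treated cells. It was at 0 FPKM in both Control libraries, at 3.02 and 0.688 FPKM in Model, and at 1.32 and 0.985 FPKM in MUS. The fragments behind these values were few, with 32 and 8 in Model and 15 and 12 in MUS. A count of 0 allows up to 3 fragments per library, which is 0.175 FPKM in Control. On the deposited scale the observed mean was 10.6 times this limit in Model and 6.60 times in MUS. These ratios are no lower bounds, since they leave out the counting error of the treated libraries and the difference in per-million scale between groups. Model replicate 1 held 32 of the 40 Model fragments, and Model replicate 2 alone was at 3.94 times the limit. The 8 fragments of Model replicate 2 have a 95% counting interval from 3.45 to 15.8, which overlaps that of 0 fragments, up to 3.69. The fitted log2 fold change of Ifnb1 was 1.38 in Model vs. Control, 2.01 within batch 1 and 0.76 within batch 2. It depends on the value of 1 added before taking logs and is no bound. On the recovered fragments voom gave 5.59. As Ifnb1 passed the filter on low values only through the treated libraries, no call is read from its test. Ifnb1 is a gene of 1 exon on chr4:88522025-88522774 (GRCm38, minus strand).

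None of the other 19 type I and III interferon genes reached a mean of 1 FPKM, and 13 of them, among them Ifna2 and Ifna4, were at 0 in every library. The summed level of these genes was at most 0.0842 FPKM in Control, 0.246 to 1.44 FPKM in Model and 0.822 to 0.918 FPKM in MUS. The MUS values came from Ifnk alone (0.822 and 0.918 FPKM), a gene singled out after its values were seen.

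**Figure D2:**
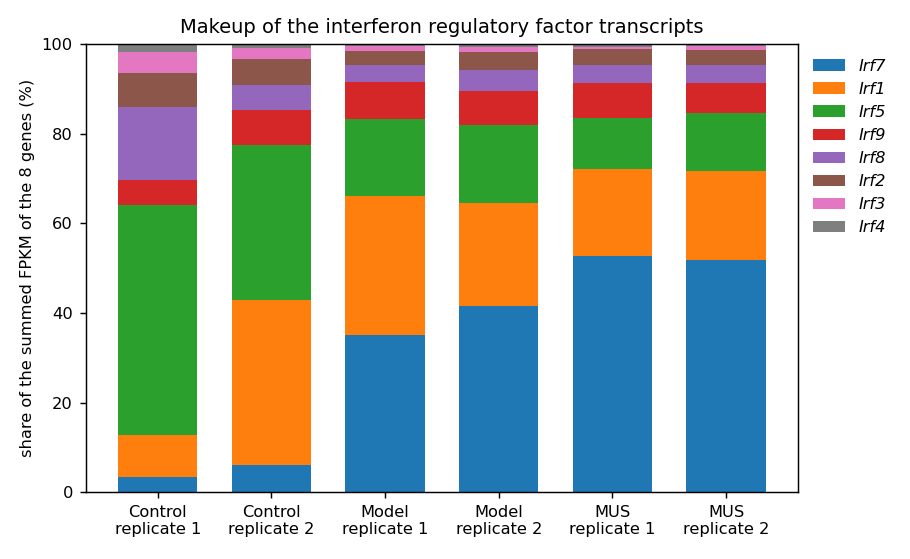
Share of each of the 8 IRF genes in their summed FPKM (vertical axis, percent) in each of the 6 libraries (horizontal axis). Irf7 (blue) made up 3.37% to 6.01% in Control, 35.2% to 41.5% in Model and 51.9% to 52.7% in MUS, and Irf5 (green) the largest or the second largest share in Control.

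The makeup of the IRF transcripts differed between treated and untreated cells. Summed over the 8 IRF genes, levels were 91.4 and 134 FPKM in Control, 379 to 432 FPKM in Model and 437 to 459 FPKM in MUS. These sums carry the per-million scale, which differed between Control and the treated groups. The shares given next do not depend on that scale, because they are ratios within a library, but they do depend on the gene lengths used. Irf5 made up 51.2% in Control replicate 1 and 34.5% in Control replicate 2, where Irf1 was the most abundant at 37.0%. It took 17.3% on average in Model and 12.2% in MUS. Irf7 rose from rank 7 and rank 4 of the 8 genes in the Control libraries to rank 1 in every Model and MUS library. Its mean share was 4.69% in Control, 38.3% in Model and 52.3% in MUS. Irf3 and Irf4 together with Irf2 and Irf8 held small shares in treated cells, the highest being 4.51% for Irf8. By mean FPKM the order in Control was Irf5, Irf1, Irf8, Irf9, Irf2, Irf7, Irf3, Irf4 and Ifnb1, and neighbors from Irf5 to Irf3 overlapped between libraries. In both Model and MUS it was Irf7, Irf1, Irf5, Irf9, Irf8, Irf2, Irf3, Irf4 and Ifnb1. There, the only neighbors that overlapped were Irf4 and Ifnb1 in Model and Irf3 and Irf4 in MUS.

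MUS vs. Model asked what muscone added to LPS and ATP. None of the 9 genes was a DEG (limma), and none had an unadjusted p under 0.05, against 8.42% of all genes tested. Over all 9794 genes there were 0 DEGs (0%) in this comparison, 825 genes had an unadjusted p under 0.05, and voom on the recovered fragments called 0 as well. The median log2 fold change of the 9 genes was -0.02, with 4 genes higher and 5 lower in MUS.

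Among the 9 genes, 3 had libraries that did not overlap between MUS and Model. Irf7 and Irf8 were higher in MUS, as were 21.2% of all genes, and Irf5 was lower, as were 21% of all genes. Of these 3, Irf7 had the largest difference, with a 1.52-fold higher mean in MUS and a log2 fold change of 0.60 (95% interval from -0.36 to 1.56, adjusted p = 0.7501, limma). The difference was 0.60 within batch 1 and 0.60 within batch 2, and between 0.57 and 0.68 under the 17 alternatives tried, with adjusted p from 0.526 to 1 (limma). The spread that the test uses for Irf7 includes the Control libraries, which differed more from each other than the treated libraries did, and with only the 2 groups compared the adjusted p was 0.547 (limma).

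Irf5 lay on the other side, with a log2 fold change of -0.35 ± 0.27 (SE, upper 95% bound 0.30, adjusted p = 0.788, limma), -0.56 within batch 1 and -0.14 within batch 2. Irf8 had a log2 fold change of 0.14 (95% interval from -0.63 to 0.90). For Irf9 it was -0.02 (95% interval from -0.82 to 0.78) and for Irf2 0.04 (95% interval from -0.48 to 0.57). Irf4 was at 0.15 (95% interval from -0.37 to 0.68), Irf3 at -0.48 (95% interval from -1.17 to 0.21) and Irf1 at -0.29 (95% interval from -1.96 to 1.38). Ifnb1 was at -0.28 (95% interval from -1.24 to 0.68), and its direction turned to 0.35 without Model replicate 1, the library with 32 of the 40 Model fragments.

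**Figure D3:**
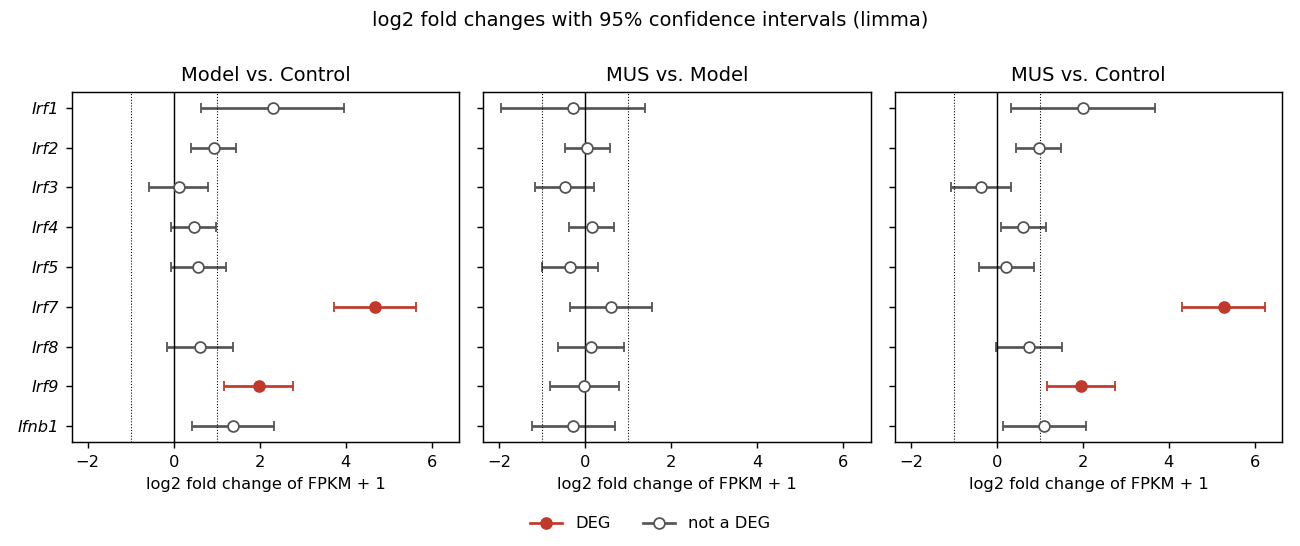
log2 fold change of FPKM + 1 (horizontal axis) of each of the 9 genes (vertical axis), 1 panel for each of the 3 comparisons. Points are limma estimates, bars their 95% confidence intervals, filled points DEGs, and dotted lines a log2 fold change of 1 in either direction. Irf7 (4.68 and 5.27) and Irf9 (1.98 and 1.96) are filled in both comparisons with Control, and every interval in MUS vs. Model includes 0.

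In MUS vs. Control, the DEGs were again Irf7 and Irf9, 2 of the 9 genes, where 20.2% of all genes were DEGs, 11.3% upregulated and 8.91% downregulated. This comparison shares its Control libraries with Model vs. Control and is no independent evidence. Irf7 had a log2 fold change of 5.27 ± 0.41 (SE, adjusted p = 0.00127, limma), a 42.0-fold higher mean on the deposited scale. Irf9 had one of 1.96 ± 0.34 (SE, adjusted p = 0.00902, limma). The Irf9 call was lost without MUS replicate 1 (1.89, adjusted p = 0.0943, limma) and without MUS replicate 2 (2.03, adjusted p = 0.0603, limma), and with no filter on low values (1.96, adjusted p = 0.0638, limma). Irf2 was at 0.97 (adjusted p = 0.0215, limma), again just under the fold threshold. Irf1 was at 2.01 (adjusted p = 0.0796), Irf8 at 0.75 (adjusted p = 0.133) and Irf4 at 0.61 (adjusted p = 0.0858), all by limma. Irf5 was at 0.22, and at -0.31 with fragment-total scaling. For 8 of the 9 genes, all but Irf3, both MUS libraries were above both Control libraries, as for 39.6% of all genes, while 33.8% lay below without overlap. An unadjusted p under 0.05 was found for 6 of the 9 genes and for 39.7% of all genes. Both of these counts include Ifnb1, which passed the filter on low values only through the treated libraries and so had to differ.

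**Figure D4:**
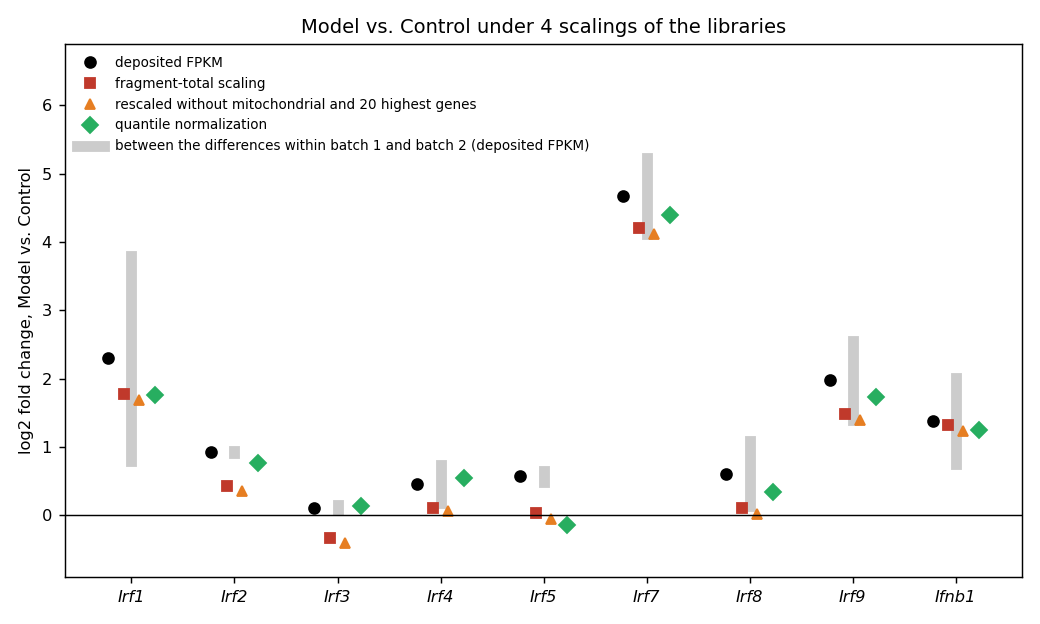
log2 fold change in Model vs. Control (vertical axis) of each of the 9 genes (horizontal axis) on the deposited scale and under 3 other scalings of the libraries. Grey bars span the differences within batch 1 and batch 2 on the deposited scale. Irf7 stayed between 4.11 and 4.68, whereas Irf5 lay at 0.58 on the deposited scale and between -0.15 and 0.04 under the others.

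The genes around the IRFs were followed in 7 lists set out by role, in which 0 genes were DEGs in MUS vs. Model (limma). Of the 24 sensors and adaptors that act upstream of IRF3 and IRF7, 23 were tested and 11 were upregulated in Model vs. Control, with a median log2 fold change of 1.13. The largest changes were in the RNA sensors Ifih1 (4.32), Ddx58 (3.23) and Tlr3 (3.22) and the nucleic acid sensor Zbp1 (3.78). Ifih1 was at 3.58 and 24.1 FPKM in Control and at 209 and 219 FPKM in Model. The count of upregulated sensors was 4 without Model replicate 1, 6 each without Control replicate 1, Model replicate 2, MUS replicate 1 or MUS replicate 2, and 1 with no filter on low values. With fragment-total scaling 9 were upregulated and 2 downregulated, and the median was 0.61.

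Of 8 partners of the IRFs on the Ifnb1 enhancer, 2 were upregulated in Model vs. Control, Nfkb1 (2.27), a subunit of NF-κB, and the acetyltransferase gene Kat2b (1.82). Jun (-1.63), a subunit of AP-1, was downregulated, from 49.6 and 28.6 FPKM in Control to 9.62 and 13.8 FPKM in Model. The median of the list was 0.27, and -0.19 with fragment-total scaling. The count of upregulated partners was 1 without any given library of Model or MUS, and the Jun call was lost without Control replicate 1, Model replicate 1 or either MUS library. Among 9 genes of interferon receptor and ISGF3 signaling, 4 were upregulated, among them the kinase Jak2 (3.21), the ISGF3 subunit Stat2 (3.12) and the receptor chain Ifnar2 (1.43), while the interferon gamma receptor chain Ifngr1 (-1.15) was downregulated. Stat2 was at 3.23 and 12.4 FPKM in Control, 47.5 and 87.1 FPKM in Model, and 66.6 and 79.7 FPKM in MUS. The count of upregulated genes was 1 without Model replicate 1, 2 without Model replicate 2, and 0 with no filter on low values, and the Ifngr1 call was lost without any given library of Model or MUS. The median of this list was 1.08, and 0.55 with fragment-total scaling, where 3 genes were upregulated and 1 downregulated.

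Among 8 DNA-binding partners of IRF4 and IRF8, 7 were tested and 3 were upregulated, Batf2 (2.38), Batf (2.14) and Ikzf1 (1.51), with a median of 1.01 and 0 calls when no filter on low values was used. With fragment-total scaling 2 were upregulated and 1 downregulated, with a median of 0.57. Of 12 inhibitors and cofactors of IRF proteins, 5 were upregulated between Control and Model, and the list median was 0.10. They included Usp18 (5.89), which dampens interferon receptor signaling, the cytokine signaling inhibitors Socs3 (5.58) and Socs1 (2.80), and the ubiquitin ligase Trim21 (2.77). Socs1 was at 0.421 and 1.05 FPKM in Control and, like Ifnb1, passed the filter on low values only through the treated libraries. With fragment-total scaling 4 of the 12 were also downregulated and the list median was -0.38. In MUS vs. Model 10 of these 12 genes were lower and 2 higher, none past the test. Socs1 was at 11.99 and 9.90 FPKM in Model and at 2.46 and 3.13 FPKM in MUS, with a log2 fold change of -1.65 (95% interval from -2.26 to -1.05, adjusted p = 0.257, limma). Socs3 was at 380 and 374 FPKM in Model and at 102 and 169 FPKM in MUS (log2 fold change -1.51, adjusted p = 0.537, limma). In MUS vs. Control the IRF2-binding cofactor genes Irf2bpl (-1.33), Irf2bp1 (-1.27) and Irf2bp2 (-1.09) were downregulated. The count of downregulated genes in this list was then 3, but 0 without MUS replicate 1, 1 without MUS replicate 2, 1 without Control replicate 1, 0 with no filter on low values and 4 with fragment-total scaling. Irf2bp1 in MUS vs. Model was at -0.59 (adjusted p = 0.496, limma).

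All 30 interferon-stimulated genes were upregulated in Model vs. Control, with a median log2 fold change of 4.38 against 0.04 over all genes. The list held genes known to respond to interferon, so its direction is no independent evidence. Among them Ifi44, singled out after its values were seen, was at 0.0357 and 0.827 FPKM in Control. It passed the filter on low values only through the treated libraries. The largest changes were in the chemokine Cxcl10 (8.47), the antiviral genes Cmpk2 (7.17) and Rsad2 (7.01), and the ubiquitin-like modifier Isg15 (6.80). Isg15 was at 1.45 and 20.1 FPKM in Control, 1083 and 592 FPKM in Model, and 1000.3 and 1169 FPKM in MUS. In MUS vs. Model the median of the list was 0.13, with 20 genes higher and 10 lower. The count of upregulated genes in Model vs. Control was 19 without Model replicate 1, 29 without Control replicate 1, 30 without Control replicate 2, 6 with no filter on low values, and 28 with fragment-total scaling, where the median was 4.06. In MUS vs. Control it was 29, but 5 without MUS replicate 1 and 10 with no filter.

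**Figure D5:**
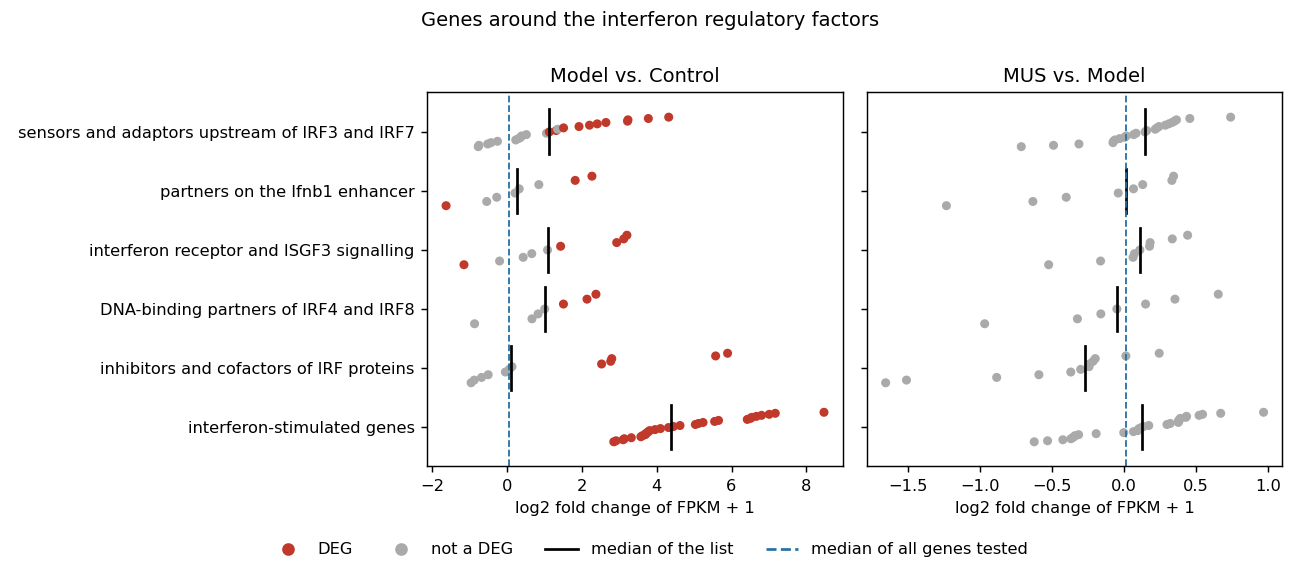
log2 fold change of FPKM + 1 (horizontal axis, different ranges) of every gene tested in 6 lists (vertical axis), with Model vs. Control on the left and MUS vs. Model on the right. Red points are DEGs, black lines list medians, and the dashed blue line the median of all 9794 genes. In Model vs. Control every interferon-stimulated gene is red with a list median of 4.38, and in MUS vs. Model no gene is red.

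The genes whose levels followed the members most closely over the 6 libraries were named by Pearson's r of log2(FPKM + 1), a description in which the libraries fall into treated and untreated. For Irf7 they were Parp11 (r = 0.999), the antiviral GTPase gene Mx2 (0.998) and Morc3 (0.998). For Irf4 they were Spire1 (0.988), Rbm28 (0.988) and Fbxo38 (0.986). The nearest gene was Cav1 for Irf9 (1.000), Marcksl1 for Irf1 (0.999), the death ligand gene Tnfsf10 for Irf2 (0.999), and Tomm22 for Ifnb1 (0.998). For Irf5, Irf3 and Irf8 it was Igsf8 (0.992), St6galnac4 (0.989) and Ehd4 (0.982). Among the members, Irf7 went with Irf2 (0.992) and Irf9 (0.981), whereas r of Irf3 with the other members lay between -0.38 and 0.45.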

How the data were processed

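RNA-seq libraries of 3 groups, with 2 libraries each, were grouped by the labels. The authors deposited 1 table of FPKM per gene and library. Their methods name RSEM for FPKM and DESeq2 for DEGs, whereas the submitters' processing notes list HISAT2, featureCounts 1.5.0-p3 and GRCm39. The order of these steps and the use of strand are not given in the sources used here. The table's coordinates belong to GRCm38, since 98.3% of the 54409 gene identifiers shared with GENCODE M21 have the same start and end there. FPKM times gene length was a whole multiple of 1 step per library (100% of values, tolerance 0.1 of a step), which gave the fragments on each gene. All columns were used, and 0 had no sample. No reads or alignments were analysed here.

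The fit used limma 3.58.1 in R 4.3.3 (lmFit, contrasts.fit, eBayes with a trend) on log2(FPKM + 1). All 6 libraries entered 1 model, and the 9794 genes averaging 1 FPKM or more were tested. Residual degrees of freedom were 3, and 4.04 prior degrees of freedom were added. p-values are two-sided and adjusted by Benjamini-Hochberg over all genes tested. A fold change on this scale understates the change of low genes. The smallest exact permutation p with 2 against 2 libraries is 0.333, so no such test was used. The fit was tested on simulated data. Other steps ran in Python 3.11.15 (NumPy 2.4.6, pandas 2.3.3, Matplotlib 3.10.9). Limits for counts of 0 use 3 fragments and cover counting error only.

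The labels give the replicate number as the batch, so the numbers pair libraries by batch. Deviations from the group means correlated with r = 0.119 between Control and Model, 0.136 between Model and MUS and -0.093 between Control and MUS. Since the study's methods name no block, it was an alternative, beside other pseudocounts, filters, scalings, voom with TMM on the recovered fragments, and each library left out.

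The 9 members, the gene lists and the markers were chosen with earlier results of these data known. Genes named are the members, up to 4 DEGs with the largest change per list and direction in a comparison, and the gene with the highest r to each member (3 for Irf7 and Irf4). Some items under this rule are not reported here. The text marks any other gene as singled out with its values known.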

Additional observations from a re-analysis of the deposited data

How the results depend on the processing

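Irf7 was a DEG in both comparisons with Control under all 17 alternatives, and no member was a DEG in MUS vs. Model under any. The count of members called in Model vs. Control, 2 as reported, was 4 with a pseudocount of 0.1, where Irf2 (1.01) and Ifnb1 were added, 4 with voom and with the replicate block, where Irf1 and Ifnb1 were added, was 1 with no filter on low values, and was 1 to 3 with a library left out. In MUS vs. Control, also 2, it was 4 with a pseudocount of 0.1, 1 with no filter and 1 to 4 with a library left out, where Control replicate 2 left out added Irf1 and Irf2 and Control replicate 1 left out added Irf8 (1.19). The replicate block changed no other call of a member. No call of Ifnb1 is read as a result, since it passed the filter on low values only through the treated libraries. Over all genes, Model vs. Control gave 1475 DEGs, 930 of them upregulated, but 260 with no filter, 797 with only the 2 groups compared, 2200 (646 upregulated) with fragment-total scaling, 2374 (584 upregulated) with rescaling, 1422 (707 upregulated) with quantile normalization, 2345 with the block and fragment-total scaling together, which was chosen after seeing the data, and 692 to 2077 with a library left out. MUS vs. Model gave 0 in the limma fit, 7 with only the 2 groups compared, 4 with the block and 1 with a pseudocount of 0.1. A fit with a library left out gave a higher count, but it held a group of only 1 library. These counts come from the fits used here and are not those of the study, whose methods name DESeq2. MUS vs. Control gave 1980 (1107 upregulated), 456 with no filter, 2691 (738 upregulated) with fragment-total scaling, 2689 (721 upregulated) with rescaling, 1987 (885 upregulated) with quantile normalization, and 184 to 2398 with a library left out.

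Signs turned in 20 cases, all for values that were not called. In Model vs. Control, Irf5 became -0.15 with quantile normalization and -0.048 with rescaling, and Irf3 became -0.40 with rescaling, -0.34 with fragment-total scaling and -0.34 with the block added to it, and lay between -0.045 (without Control replicate 2) and 0.27 with a library left out, at -0.0079 without Model replicate 1. In MUS vs. Model, Irf9 became 0.040 with quantile normalization and 0.064 with rescaling, and lay between -0.15 and 0.12 (without Model replicate 1) with a library left out, at 0.05 without MUS replicate 2. Leaving out Model replicate 1 or 2 gave 0.011 or -0.59 for Irf1, -0.036 or 0.13 for Irf2, -0.0065 or 0.31 for Irf4, and 0.35 or -0.91 for Ifnb1. In MUS vs. Control, Irf5 became -0.42 with quantile normalization, -0.31 with rescaling, -0.31 with fragment-total scaling and -0.31 with the block added to it, and Irf3 lay between -0.74 and 0.0044 (without MUS replicate 1) with a library left out. The causes were not tested. With 2 libraries a group, Ifnb1 and Irf4 are also limited by few fragments.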
